A study of Mus musculus with 162 samples.

Results

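The libraries described here come from spinal cords of uninjected wild-type mice, collected on day 8 of a skin treatment with MC903 or with its ethanol vehicle. They were chosen from the labels alone (spinal cord, wild-type, no injection, day 8), which gave 4 MC903 and 5 ethanol libraries, 9 of the 162 in the series. MC903 (calcipotriol) is a vitamin D analog that, when painted on mouse skin, produces an itchy, inflamed lesion used as a model of atopic dermatitis. The series followed gene expression by RNA-seq in skin, trigeminal ganglion and spinal cord, with and without injections that deplete neutrophils. All 9 libraries came from adult male C57BL/6 mice. The treated mice received 0.2 mM MC903 in ethanol once daily and the controls received ethanol alone. According to the study's methods the solution was applied to the shaved rostral back and the thoracic cord was dissected, so each library is a mixture of all cells of a cord segment and none was enriched for dorsal horn. Anti-Gr1 is an antibody against Ly-6G and Ly-6C that the study used to deplete neutrophils. For comparison, 4 cord libraries of PBS-injected mice (2 MC903, 2 ethanol) and 14 of mice injected with 250 µg of anti-Gr1 (8 MC903, 6 ethanol) were fitted separately. They came from wild-type adult male mice of the same strain, treatment and day, and each group had its own ethanol mice. The question was which cord genes differed between MC903-treated and ethanol-treated mice.

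The spinal cord receives itch signals from the skin through primary sensory neurons, and dorsal horn interneurons relay them toward the brain. Active neurons briefly transcribe immediate early genes such as Fos. Astrocytes, microglia and oligodendrocytes surround these neurons, and each of them changes its transcripts with inflammation, injury or circulating hormones. Glucocorticoids, the adrenal hormones of the stress response and of the daily rhythm, enter the cord from blood and act through a nuclear receptor that directly induces genes such as Fkbp5 and Per1.

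The 9 libraries held between 25941277 and 50591655 counts assigned to genes. Reads outside annotated genes made up 11.6% to 14.3% of the tally in MC903 libraries and 9.42% to 12.7% in ethanol libraries, and 16.7% to 21.5% in the injected groups. Cord markers were abundant: the summed level of 14 neuronal genes ran from 6483 to 7887 cpm (counts per 1000000 counts, libraries scaled by TMM) over the 9 libraries and that of 12 astrocyte genes from 8280 to 9797. The 9 measured skin markers summed to between 8.42 and 24.1 cpm. Ethanol replicate 1 stood apart. Its median correlation with the other ethanol libraries was 0.9745 on log2 cpm, against 0.994 to 0.9946 for each of those with its own group.

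MC903 treatment of the back was accompanied by broad differences in the cord. Of 25585 genes tested, 3118 passed an adjusted p of 0.05 (edgeR's quasi-likelihood test, 4 against 5 libraries), or 12.2%. In MC903 cords 1291 genes were higher (5.05%) and 1827 lower (7.14%), and the change exceeded 2-fold in 308 and 429 of them. Genes that respond to glucocorticoids were the list with the most members higher, while microglial, oligodendrocyte, meningeal, antigen presentation and interferon-induced genes were lower. The lists were chosen with earlier results of these data known. Pan-neuronal markers did not pass the test in either direction. The median log2 fold change over all genes tested was 0.01. The number of calls rested in part on single libraries: it was 4960 without ethanol replicate 1 and 1887 without MC903 replicate 1. The labels number the libraries of a group without naming the mice, so the p-values measure the spread between these samples, part of which may be technical.

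**Figure D1:**
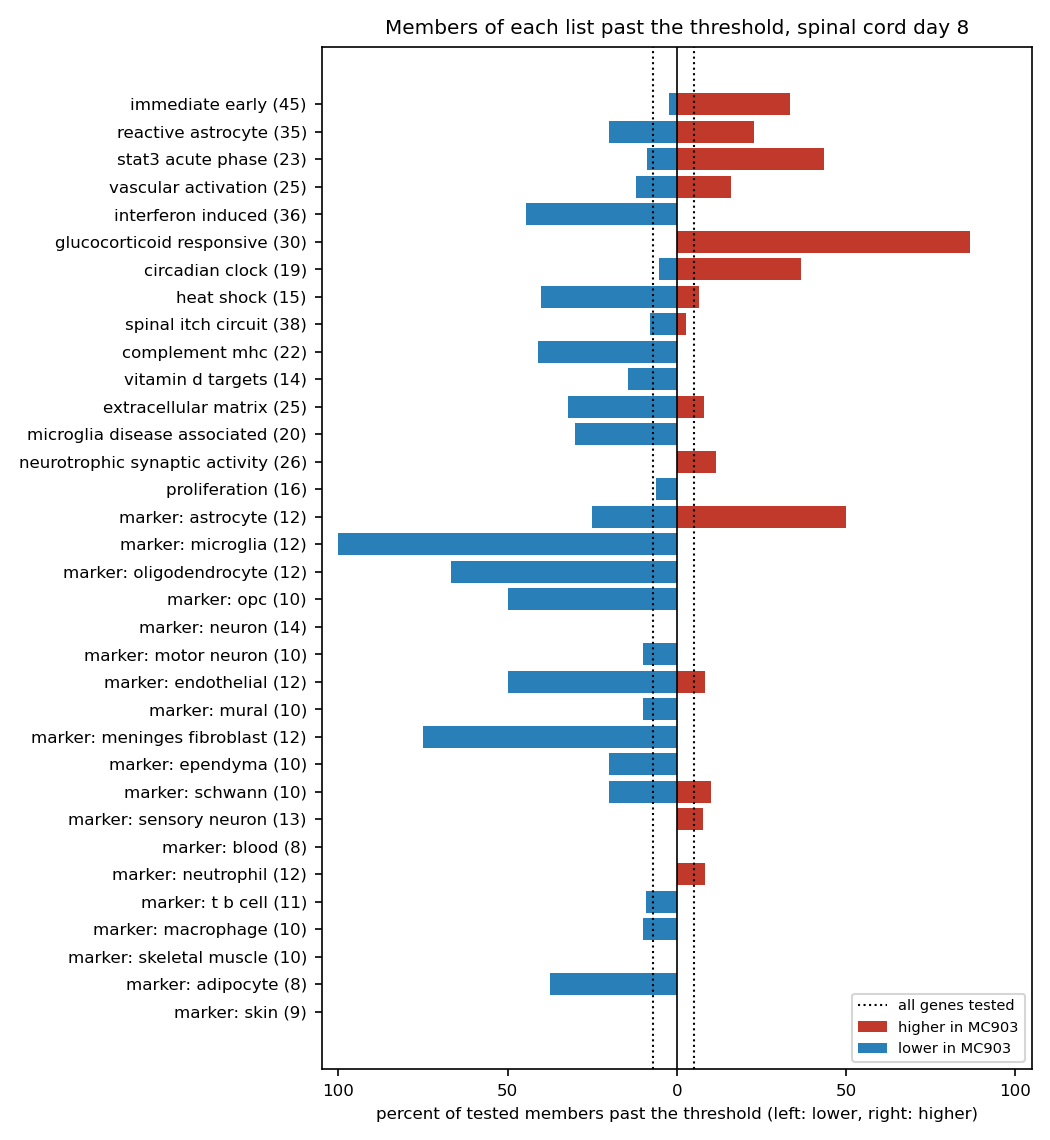
Share of the tested members of each of the 34 gene lists that passed the threshold, to the right where higher and to the left where lower in MC903 cords, with the number of members tested in parentheses. Dotted lines mark the shares over all genes tested, 5.05% higher and 7.14% lower; 26 of 30 glucocorticoid-responsive genes lie to the right and 12 of 12 microglial markers to the left.

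The 3 genes for which the study's text singles out the cord were all higher. Lcn2 (chr2:32384633-32388252, minus strand, GRCm38) encodes lipocalin 2, a secreted iron-carrier binder made by reactive astrocytes. Its level was 10.3, 9.46, 18 and 16.5 cpm in the 4 MC903 libraries and 4.49, 2.96, 1.99, 6.05 and 2.38 cpm in the 5 ethanol libraries. Every treated library lay above every control, and the log2 fold change was 1.93 ± 0.30 (SE; adjusted p = 0.000782). Fos (chr12:85473890-85477273, plus strand), which encodes a subunit of the AP-1 transcription factor, measured 26.9, 20.9, 22.8 and 26.3 cpm with MC903 and 12.6, 12.5, 19.6, 12.8 and 9.75 cpm with ethanol. The lowest treated value stood just above the highest control, and the log2 fold change was 0.85 ± 0.17 (adjusted p = 0.00416). Junb (chr8:84974484-84978718, minus strand), another AP-1 subunit, measured 14.5, 13.7, 10.7 and 20 cpm against 9.56, 7.80, 9.17, 7.06 and 8.39 cpm. The groups did not overlap, and the log2 fold change was 0.81 ± 0.16 (adjusted p = 0.00524).

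**Figure D2:**
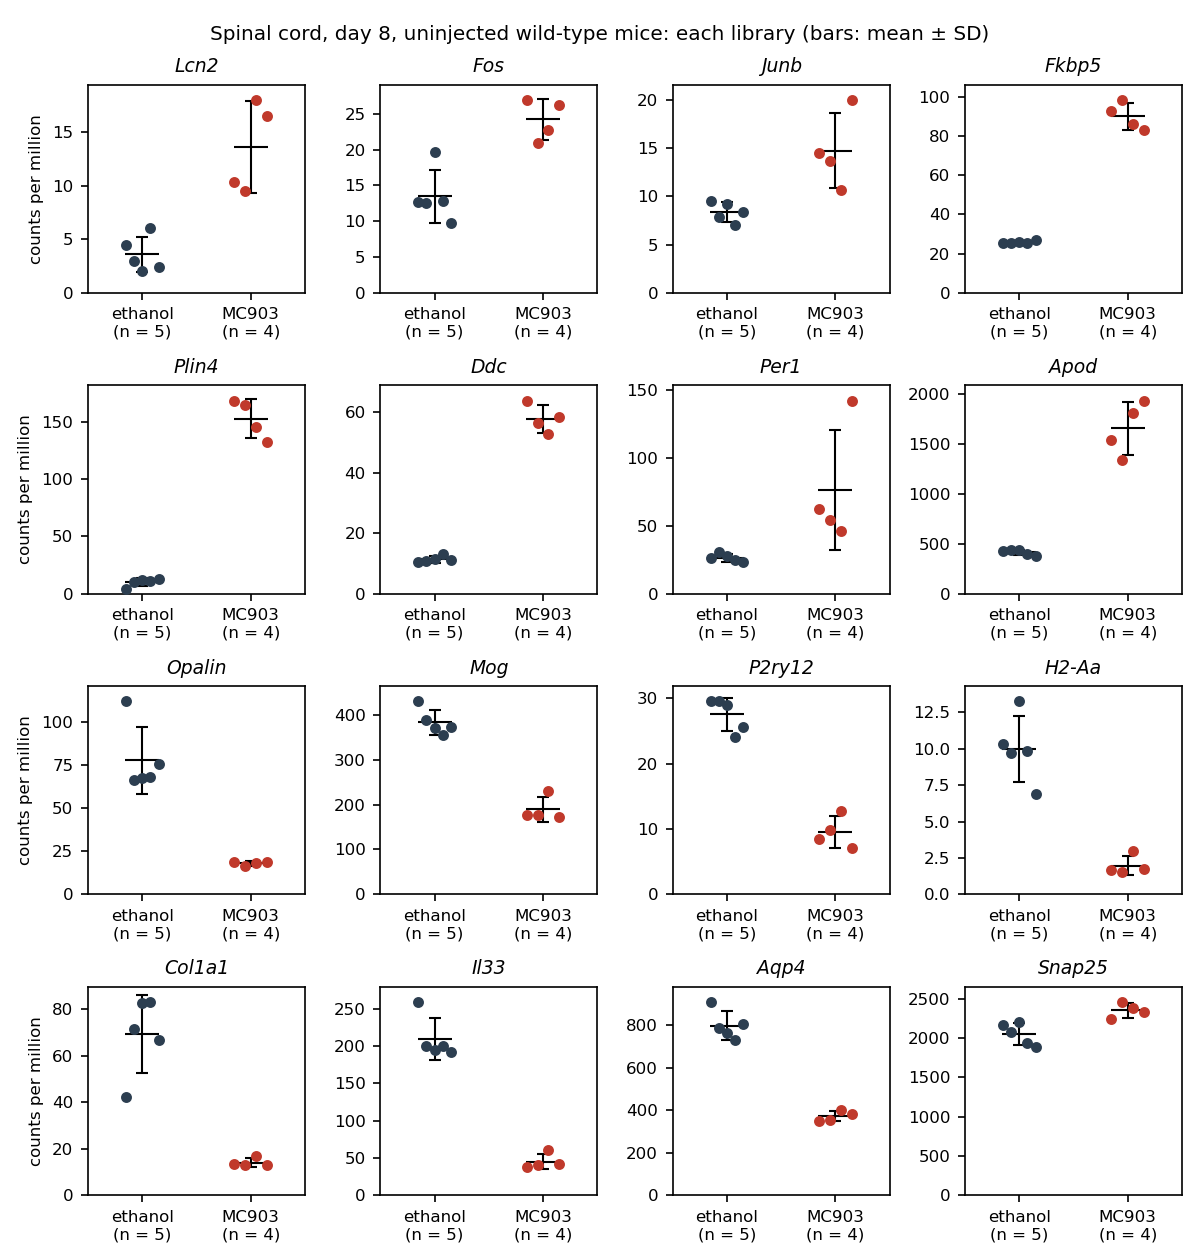
Level of 16 genes in cpm (vertical axis, linear, from 0) in each of the 5 ethanol and 4 MC903 cord libraries; points are libraries and bars the mean ± SD. Fkbp5 sits between 25.3 and 26.7 in ethanol and between 83.2 and 98.4 in MC903 libraries, while Snap25 did not pass the test.

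Glucocorticoid-responsive genes were higher as a group. Of 30 genes on that list, all tested, 26 were higher and none lower, and the median log2 fold change was 1.43 against 0.01 over all genes. The list was drawn up with earlier results of these data known, so these values describe it and are no independent test. The count of higher members ran from 24 to 27 over the other fits, and 1 member passed as lower without ethanol replicate 1. Fkbp5 (chr17:28399094-28517527, minus strand) encodes a cochaperone that restrains the glucocorticoid receptor. It measured 92.6, 98.4, 86.1 and 83.2 cpm with MC903 and 25.3, 25.3, 25.8, 25.4 and 26.7 cpm with ethanol. The ethanol libraries were nearly level with each other, and all treated libraries were over 3-fold above them (log2 fold change 1.81 ± 0.07, adjusted p = 1.16e-08).

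Plin4 (chr17:56100591-56109803, minus strand), a lipid droplet coat protein, had the largest fold change on this list. It measured 169, 166, 146 and 132.7 cpm with MC903 and 3.81, 10.4, 11.5, 10.8 and 12.3 cpm with ethanol. Ethanol replicate 1 was the lowest control, and no library overlapped the other group (log2 fold change 3.97 ± 0.24, adjusted p = 2.53e-07). Hif3a, a hypoxia-inducible factor subunit, rose from 21.3 ± 1.47 to 86.4 ± 7.65 cpm (mean ± SD, n = 5 and 4; log2 fold change 2.02 ± 0.08, adjusted p = 1.38e-08). Ddit4, which inhibits mTORC1 signaling, rose from 36.9 ± 2.37 to 149 ± 19.9 cpm (log2 fold change 2.02 ± 0.09). Arrdc2, an arrestin-domain protein, rose by 2.24 ± 0.11 on the log2 scale. Sult1a1, a phenol sulfotransferase, rose from 7.94 ± 1.78 to 48.8 ± 2.05 cpm (log2 fold change 2.62 ± 0.14). Members with other roles rose as well: the kinases Sgk1 (2.49 ± 0.28) and Map3k6 (2.21 ± 0.15), the cell cycle inhibitor Cdkn1a (2.90 ± 0.23), the metallothioneins Mt1 (1.44 ± 0.22) and Mt2 (1.42 ± 0.14), and the pyruvate dehydrogenase kinase Pdk4 (1.44 ± 0.13), all log2 fold changes. Tsc22d3, known as glucocorticoid-induced leucine zipper, rose least among the 26 (0.37 ± 0.08, adjusted p = 0.0089). The 4 members that did not pass were Angptl4, Sdc4, Bcl6 and Tgm2, with log2 fold changes of 0.92, 0.52, 0.20 and -0.49. Several members belong to other lists too (Lcn2, Dusp1, Per1, Gjb6, Cebpd and Nfkbia), and they respond to other signals as well as to steroid.

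**Figure D3:**
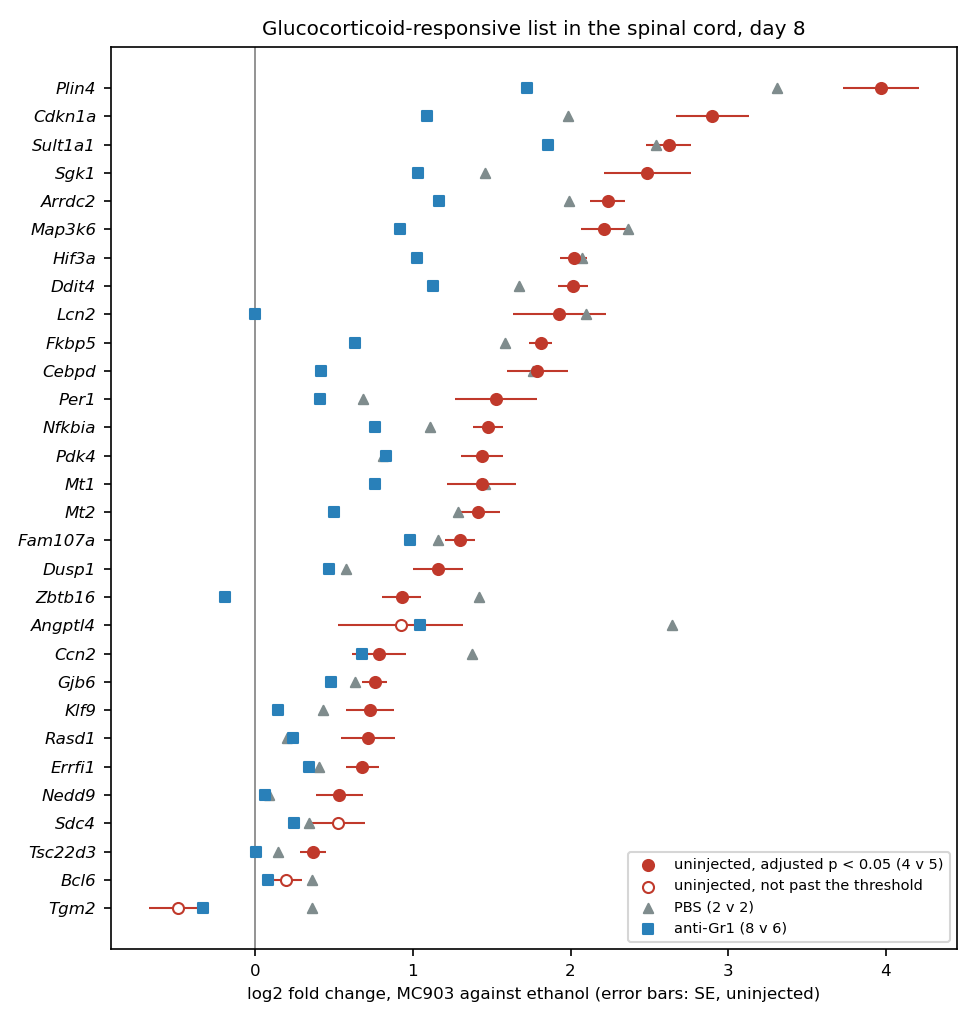
Log2 fold change of MC903 against ethanol for the 30 glucocorticoid-responsive genes: circles with SE bars are the uninjected cords (filled where the adjusted p passed 0.05), triangles the PBS-injected and squares the anti-Gr1-injected cords, each against its own ethanol mice. Of the circles, 29 lie right of 0, from Bcl6 at 0.20 to Plin4 at 3.97, and the anti-Gr1 squares are mostly nearer to 0.

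The glucocorticoid receptor binds a palindromic element, so the 250 bases before the start of each gene were searched for it on both strands. RefSeq windows (GRCm38.p6, first listed start) were at hand for 14812 of the 25585 genes. A longer form, the letters ACANNNTGT with a G 2 bases before them and a C 2 bases after them, occurred in the windows of 46 of these genes (0.311%), of 12 of 939 higher genes (1.28%) and of 1 of 1340 lower genes (0.0746%). The core ACANNNTGT, which lies within the longer form, occurred in 4.09%, 5.64% and 3.06% of the same windows. Windows were also searched for the cAMP response element TGACGTCA (2.36% of all, 3.41% of higher and 1.79% of lower genes), the AP-1 site TGANTCA (5.12%, 5.64% and 4.10%), the clock E-box CACGTG (7.52%, 8.63% and 7.61%) and the serum response core, CC and GG around 6 bases (78%, 81.2% and 80.4%). Among the 22 higher genes of the glucocorticoid list with a window, Map3k6 and Mt1 held the longer form and Lcn2 the core alone. Receptor sites are often far from the start, and a window without these letters says nothing of the receptor. The 12 sites are shown because their genes were called higher, with 10 bases on either side where the window allowed, 13 letters of the match in capitals, and read in the direction of each gene. The genes were picked for the match, after their values were seen.
Trim63 (chr4:134314902-134314934, plus strand): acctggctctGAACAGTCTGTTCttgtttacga
Map3k6 (chr4:133240627-133240659, plus strand): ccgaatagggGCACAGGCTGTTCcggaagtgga
Mt1 (chr8:94178985-94179017, plus strand): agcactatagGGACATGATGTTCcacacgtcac
Slc10a6 (chr5:103629544-103629576, minus strand): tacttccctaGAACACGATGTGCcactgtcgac
Txnip (chr3:96557775-96557807, plus strand): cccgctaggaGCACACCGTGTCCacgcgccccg
Car14 (chr3:95904888-95904920, minus strand): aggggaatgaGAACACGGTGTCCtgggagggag
Amy1 (chr3:113577944-113577976, minus strand): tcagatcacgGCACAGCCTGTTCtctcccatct
Stx17 (chr4:48124705-48124737, plus strand): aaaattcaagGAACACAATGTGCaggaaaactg
Clic3 (chr2:25456817-25456842, plus strand): agctcccaagGCACACCCTGTGCcct
Fyb2 (chr4:104913311-104913336, plus strand): tagGGACAAGATGTACtcagctctca
Serpina3n (chr12:104406620-104406652, plus strand): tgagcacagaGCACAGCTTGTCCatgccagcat
Serpina3c (chr12:104153925-104153957, minus strand): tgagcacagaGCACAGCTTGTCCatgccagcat
Trim63 encodes a muscle ubiquitin ligase, Txnip a thioredoxin inhibitor, Car14 a carbonic anhydrase and Amy1 an amylase with close copies. Serpina3n and Serpina3c are neighboring duplicates with identical letters here, so they count as 1 sequence, and reads may also be shared between such copies. The 12 genes had log2 fold changes between 0.50 (Stx17, a syntaxin) and 4.17 (Trim63). The lower gene with a match was Folh1, which encodes a glutamate carboxypeptidase (log2 fold change -0.30, adjusted p = 0.0471):
Folh1 (chr7:86776040-86776072, minus strand): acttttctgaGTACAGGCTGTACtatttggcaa

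Genes outside the lists were among those with the smallest p-values. Here and below such genes were named only where the groups did not overlap, so their separation was a condition of naming. Of all genes tested, 16.4% did not overlap between the groups, and of the 3118 genes that passed, 2788 did not. Ddc encodes the aromatic amino acid decarboxylase that makes dopamine, serotonin and trace amines. It measured 63.9, 56.4, 52.8 and 58.4 cpm with MC903 and 10.4, 10.6, 11.3, 13 and 11.1 cpm with ethanol. The groups were far apart (log2 fold change 2.36 ± 0.09, adjusted p = 1.06e-08), and Ddc had the smallest p of all genes that rose. Apod, a lipid-binding apolipoprotein of glia, rose from 412 ± 26.7 to 1654 ± 268 cpm (log2 fold change 2.0 ± 0.10). Etnppl, a phosphoethanolamine lyase of astrocytes, measured 178, 169, 181 and 222 cpm with MC903 and 58.6, 47.7, 54.6, 50.9 and 48.9 cpm with ethanol. All treated libraries lay above all controls (1.85 ± 0.09, adjusted p = 5.2e-08). Pla2g3, a secreted phospholipase, rose by 2.26 ± 0.11, Sgk3, a kinase related to Sgk1, by 2.30 ± 0.12, and Rbm3, a cold-inducible RNA-binding protein, by 1.35 ± 0.07 on the log2 scale. Tma16 (1.92 ± 0.09) and Zfand4 (2.42 ± 0.12) rose as well.

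Fold changes were larger in a few scarce transcripts. Aire, known for its role in thymic tolerance, measured 9.67, 4.49, 4.46 and 7.85 cpm against 0.03, 0.49, 0.31, 0.41 and 0.51 cpm (log2 fold change 4.21 ± 0.41, adjusted p = 1.70e-05). Trim63 was high in MC903 replicates 1 and 4, at 12.8 and 26.6 cpm, and stood at 1.61 and 2.03 cpm in replicates 2 and 3, against 0.30 to 0.81 cpm in controls (log2 fold change 4.17 ± 0.73). The 10 skeletal muscle markers summed to 164, 73.6, 102 and 250.2 cpm in the MC903 libraries and to 79.6 to 226 cpm in ethanol libraries. Among treated cords, those with more Trim63 also held more muscle transcript. Ethanol replicate 2 held the 226 cpm, more than MC903 replicate 1, with Trim63 no higher than 0.81 cpm. The part of muscle in the Trim63 values was not tested. Il13ra2, the decoy receptor for IL-13, was counted 27, 39, 23 and 21 times with MC903 and 0, 4, 2, 0 and 0 times with ethanol (adjusted p = 0.00167). The gene model 5330429C05Rik was counted 28, 45, 31 and 31 times against 0, 1, 0, 1 and 1 times (adjusted p = 3.33e-05).

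Immediate early genes were moderately higher. Of 45 tested, 15 were higher and 1 was lower (2 without ethanol replicate 1), with a median log2 fold change of 0.28. Maff, a small Maf transcription factor, measured 30.3, 24.6, 26.3 and 35.3 cpm with MC903 and 3.26, 1.67, 3.06, 2.07 and 1.87 cpm with ethanol. It had the largest change of the list and no overlap (3.61 ± 0.19, adjusted p = 8.38e-08). Csrnp1, a nuclear protein, measured 20.3, 18.5, 18.9 and 37.3 cpm against 8.88, 8.82, 8.14, 7.77 and 7.69 cpm. MC903 replicate 4 was far above the other treated libraries, which were themselves above all controls (1.52 ± 0.19, adjusted p = 0.00013). Dusp1, a phosphatase that switches off MAP kinases, rose by 1.16 ± 0.16, Zfp36, which destabilizes inflammatory transcripts, by 1.0 ± 0.15, and the kinase Sik1 by 0.84 ± 0.15. Fosl2 (0.98 ± 0.19), Nr4a1 (1.04 ± 0.22) and Btg2 (0.90 ± 0.17) rose too. Arc, a neuronal gene that is switched on by synaptic activity, went the other way. It measured 5.47, 3.80, 5.12 and 3.72 cpm with MC903 and 6.13, 10.8, 8.86, 10.2 and 9.67 cpm with ethanol, below every control (-1.01 ± 0.18, adjusted p = 0.00269).

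Genes that follow STAT3 and the acute phase response showed a similar mixture. Of 23 tested (26 on the list), 10 were higher and 2 lower, with a median of 0.66. Cebpd, a transcription factor of that response, measured 17, 11, 12.9 and 20 cpm with MC903 and 5.91, 3.79, 4.40, 4.51 and 3.42 cpm with ethanol. It rose by 1.79 ± 0.19 without overlap (adjusted p = 4.49e-05), and its relative Cebpb rose by 1.04 ± 0.19. Lrg1, a secreted glycoprotein of endothelium and liver, rose from 2.75 ± 0.96 to 9.24 ± 2.40 cpm (1.75 ± 0.27). The chains of the IL-6 receptor moved apart. Il6ra rose by 1.28 ± 0.15 (adjusted p = 8.84e-05), while Il6st, which encodes gp130, fell by 0.45 on the log2 scale (adjusted p = 0.00112). Complement component C3 also fell (-0.47 ± 0.11), a call that was lost without MC903 replicate 1 (adjusted p = 0.0511).

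Of 25 genes of vascular activation tested (27 listed), 4 were higher and 3 lower, the latter 5 without ethanol replicate 1. Nfkbia, the inhibitor of NF-κB, measured 62.5, 66.3, 62.1 and 68.2 cpm with MC903 and 19.9, 24.5, 27.2, 23.8 and 21.2 cpm with ethanol. It rose by 1.48 ± 0.09 (adjusted p = 3.63e-07), and it is also a glucocorticoid-responsive gene. Apold1, an endothelial immediate early gene, rose by 1.41 ± 0.19. The adhesion molecule Vcam1 fell slightly (-0.43 ± 0.10), a call that was lost without MC903 replicate 2 (adjusted p = 0.0586). The protease Adamts4 (-0.89 ± 0.10) and the endothelial tip cell gene Esm1 (-1.32 ± 0.29) fell.

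Astrocyte genes did not move together. Of 12 markers, 6 were higher and 3 lower, and their summed level of 8280 to 9797 cpm in MC903 cords covered that in ethanol cords, 8445 to 8838 cpm. Agt, which encodes angiotensinogen, measured 482, 496, 504 and 614 cpm with MC903 and 224, 202, 204, 208 and 214 cpm with ethanol. It rose by 1.32 ± 0.08 (adjusted p = 2.64e-07). Aqp4, the water channel of astrocyte end feet, measured 347, 356, 400 and 380 cpm against 910, 786, 763, 729 and 805 cpm. All treated cords were below all controls, and the log2 fold change was -1.11 ± 0.08 (adjusted p = 1.29e-06). Gjb6, a gap junction connexin, rose by 0.76 ± 0.08, the growth factor receptor Fgfr3 by 0.85 ± 0.09 and the glycolytic enzyme Aldoc by 0.29 ± 0.07. Gfap, the filament protein that usually accompanies astrocyte reactivity, averaged 1166 ± 118.7 cpm with MC903 and 1507 ± 144 cpm with ethanol. That decrease (-0.37 ± 0.09, adjusted p = 0.0165) lost its call in 3 of the 9 fits without 1 library, those without MC903 replicate 1, MC903 replicate 2 or ethanol replicate 3 (adjusted p up to 0.075). In the same 3 fits 1 astrocyte marker passed as lower.

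The list of reactive astrocyte genes was split, with 8 higher and 7 lower of 35; the lower count was 11 without ethanol replicate 1 and 4 without MC903 replicate 1, MC903 replicate 2 or ethanol replicate 3. Higher members included Fkbp5, Lcn2, the small heat shock protein Hspb1 (0.74 ± 0.12), the protease inhibitor Serpina3n (0.66 ± 0.13) and the steroid sulfate transporter Slc10a6 (3.15 ± 0.68). Lower members included the interferon-induced GTPase Gbp2 (-1.71 ± 0.14, adjusted p = 3.42e-06), the hyaluronan receptor Cd44 (-0.75 ± 0.09) and Emp1 (-0.83 ± 0.15).

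Oligodendrocyte transcripts were lower for part of the lineage. Of 12 markers, 8 were lower, with a median log2 fold change of -0.78, and 1 passed as higher without ethanol replicate 1. In bulk tissue, fewer cells of a type and less RNA per cell cannot be told apart. Opalin, a membrane protein of mature oligodendrocytes, measured 18.7, 16.2, 17.9 and 18.7 cpm with MC903 and 112.1, 66.2, 67.6, 68.2 and 75.9 cpm with ethanol. Ethanol replicate 1 was highest, and the other controls were still over 3-fold above each treated cord (-2.13 ± 0.15, adjusted p = 9.98e-07). Ugt8a, which makes the galactolipids of myelin, measured 70.5, 81.3, 124.6 and 48.2 cpm against 460, 513, 512, 456 and 481 cpm. The treated cords varied more than 2-fold among themselves but none approached a control (-2.58 ± 0.21, adjusted p = 3.2e-06). Mog, a surface protein of the myelin sheath, fell from 383 ± 28.5 to 189 ± 27.6 cpm (-1.02 ± 0.10). The myelin adhesion protein Mag (-0.81 ± 0.07), the phosphodiesterase Cnp (-0.75 ± 0.08) and aspartoacylase Aspa (-0.72 ± 0.07) fell, as did Ermn (-1.31 ± 0.15). The myelin basic protein gene Mbp (-0.00, adjusted p = 0.988), Mobp (0.11), Cldn11 (-0.16) and the transcription factor Myrf (-0.03) did not pass.

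Among 10 precursor genes 5 were lower, or 3 in the fits without MC903 replicate 1, MC903 replicate 2, ethanol replicate 3 or ethanol replicate 4. Gpr17, a receptor of differentiating precursors, measured 7.76, 8.86, 12 and 4.43 cpm with MC903 and 29.6, 33.9, 34.8, 40.2 and 32.6 cpm with ethanol. The highest treated value was well under the lowest control (-2.05 ± 0.21, adjusted p = 2.64e-05). C1ql1, a secreted synaptic organizer, fell by 1.23 and the lineage transcription factor Sox10 by 0.96 on the log2 scale. Olig2 (-0.49 ± 0.13) and Cspg4 (-0.36 ± 0.10) passed, but lost the call in 5 and 6 of the 9 fits without 1 library, at adjusted p up to 0.104 and 0.125. The precursor receptor Pdgfra did not pass (0.27).

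Microglial markers were lower without exception: 12 of 12 passed, with a median log2 fold change of -1.50, and their sum was 191 to 273 cpm in MC903 cords and 412 to 474 cpm in ethanol cords. Fcrls, an Fc receptor-like gene of resident microglia, measured 1.88, 1.88, 2.39 and 2.11 cpm with MC903 and 19.1, 13.6, 15.4, 12.1 and 13.1 cpm with ethanol. It had the smallest p of the list (-2.83 ± 0.17, adjusted p = 1.79e-07). P2ry12, the purinergic receptor of surveying microglia, measured 8.44, 9.80, 12.7 and 7.01 cpm against 29.5, 29.5, 29, 24.2 and 25.6 cpm. Its groups were far apart as well (-1.54 ± 0.15, adjusted p = 1.90e-05). Itgam, the integrin CD11b, measured 5.6, 5.62, 9.51 and 5.57 cpm against 14.7, 20.8, 19, 17.7 and 20.7 cpm. MC903 replicate 3 lay above the other treated libraries and below all controls (-1.50 ± 0.17, adjusted p = 8.20e-05). Olfml3 fell by 1.49 and the growth factor receptor Csf1r by 0.66 on the log2 scale. Among the other members, Cx3cr1 (-1.56 ± 0.27), Gpr34 (-1.61 ± 0.28) and Aif1 (-2.17 ± 0.44) fell most.

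Genes that rise in disease-associated microglia did not rise here. Of 20 tested, 6 were lower, and 1 passed as higher without ethanol replicate 1. Igf1, a growth factor, measured 12.3, 12.7, 12.1 and 12.6 cpm with MC903 and 21.4, 49.2, 45.1, 30.2 and 40.2 cpm with ethanol (-1.58 ± 0.20, adjusted p = 0.000146). Its treated values were tight, and its controls spread over more than 2-fold. The lipid receptor Trem2 (-1.05 ± 0.19) and the tetraspanin Cd9 (-0.65 ± 0.11) fell. Tyrobp (-0.75 ± 0.21), Ctsz (-0.30 ± 0.09) and Cd63 (-0.43 ± 0.13) passed narrowly and lost the call in 6, 6 and 8 of the 9 fits without 1 library; their adjusted p reached 0.109, 0.149 and 0.146. The list then had 3 lower members without MC903 replicate 1, MC903 replicate 2, ethanol replicate 2, ethanol replicate 3 or ethanol replicate 4.

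Antigen presentation genes fell, led by MHC class II, which microglia, macrophages and other presenting cells express. H2-Aa measured 1.68, 1.52, 2.95 and 1.71 cpm with MC903 and 10.4, 9.68, 13.3, 9.88 and 6.87 cpm with ethanol. The groups were separate (-2.36 ± 0.23, adjusted p = 2.04e-05). H2-Ab1 (-2.44 ± 0.32), H2-Eb1 (-2.15 ± 0.27) and the invariant chain Cd74 (-1.82 ± 0.26) fell alike, and the H2 genes are close relatives that can share reads. In the whole list of 22 complement and MHC genes 9 were lower, a number that was 4 or 5 without MC903 replicate 1, MC903 replicate 2 or ethanol replicate 2; none was higher, or 1 without ethanol replicate 1. The complement subunit C1qa was slightly lower (-0.35 ± 0.09, adjusted p = 0.0157), a call lost without MC903 replicate 1, MC903 replicate 2 or ethanol replicate 2 (adjusted p up to 0.0766).

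Interferon-induced genes were lower too, at low levels. Of 36 tested, 16 were lower, with a median log2 fold change of -0.81, and 34 of the 36 had a negative sign. The count of lower genes was 25 without ethanol replicate 1, 9 or 10 without MC903 replicates 1, 2 or 4 in turn, and 10 without ethanol replicate 2. The count was 7 with the replicate number added to the fit as a block. Gbp2, the most clearly changed, measured 3.46, 2.94, 3.93 and 2.85 cpm with MC903 and 10.8, 12.1, 10.4, 10.5 and 9.91 cpm with ethanol. Ifit3, an antiviral protein, fell from 12.5 ± 1.77 to 6.18 ± 1.09 cpm (-1.02 ± 0.15, adjusted p = 0.000597). Usp18, a brake on interferon receptor signaling, fell by 1.66, Oasl2 by 1.15, Iigp1 by 1.42 and Rtp4 by 0.88 on the log2 scale. The chemokine Cxcl10 did not pass (-1.43, adjusted p = 0.13).

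**Figure D4:**
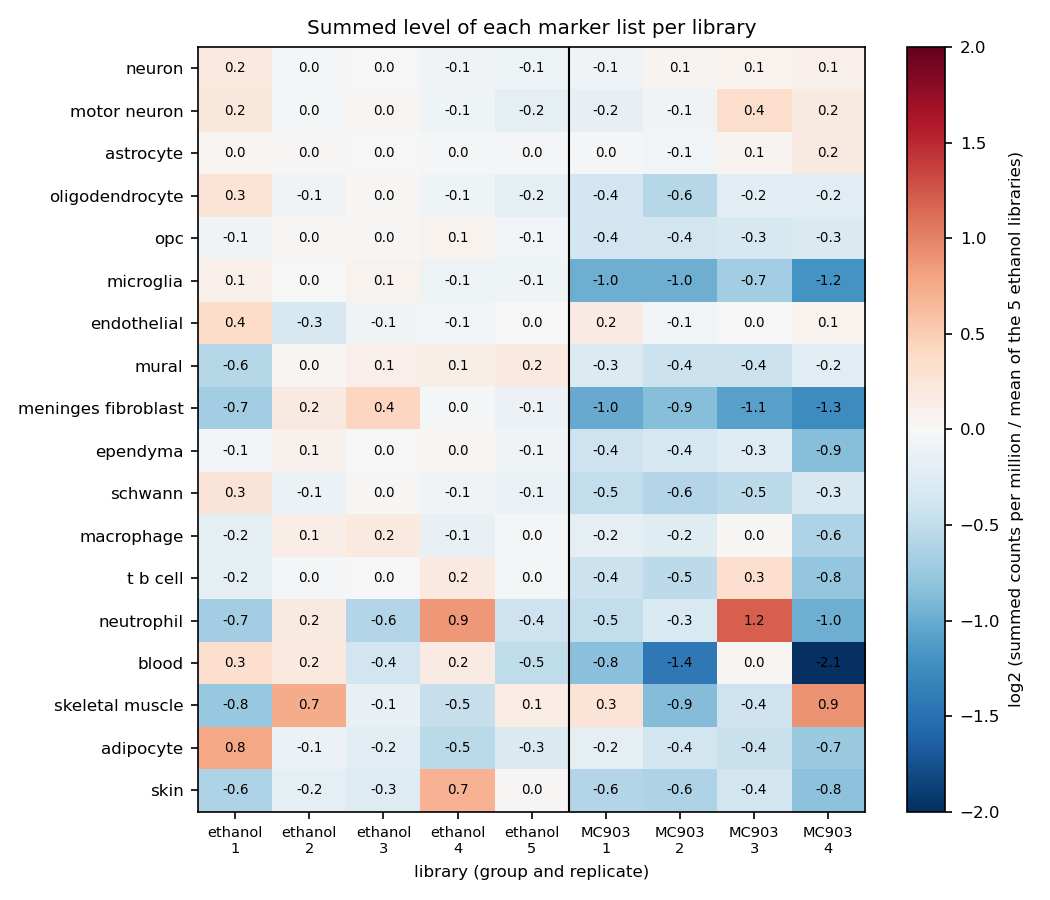
Summed cpm of each marker list in the 9 libraries, as log2 of the ratio to the mean of the 5 ethanol libraries (color scale and printed values). Microglial sums lie between -1.2 and -0.7 in all 4 MC903 libraries, meningeal sums are low there and in ethanol replicate 1, and neuronal and astrocyte sums stay near 0.

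Most meningeal fibroblast genes were lower in the treated cords, and their level depends on how much meninx stays on a dissected cord. Of 12 meningeal markers, 9 were lower (median -1.07). Their sum was 233 to 306 cpm in MC903 libraries, 344 cpm in ethanol replicate 1 and 511 to 747 cpm in the other ethanol libraries. Whether the dissections carried unequal meninges was not tested. Col1a1, a chain of type I collagen, measured 13.2, 13, 16.7 and 13.1 cpm with MC903 and 42.1, 71.4, 82.8, 83 and 66.6 cpm with ethanol. Ethanol replicate 1 was the lowest control (-2.31 ± 0.18, adjusted p = 2.22e-06). Col1a2 fell by 1.28, the proteoglycan Lum by 1.86, the growth factor Igf2 by 0.97, and the meningeal transporters Slc13a4 and Slc6a13 by 1.18 and 0.81 on the log2 scale. With the PBS mice added and injection as a term, 3 meningeal markers passed as lower, and Igf2 (adjusted p = 0.125), Slc13a4 (0.206) and Slc6a13 (0.427) did not.

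Of 25 matrix genes, 8 were lower, 2 were higher and 15 did not pass (median -0.19). Their summed level was higher with MC903, 3507 to 4387 cpm against 2849 to 3307 cpm with ethanol, and Sparc made up most of it. Col3a1 fell from 43.6 ± 22.3 to 6.56 ± 1.44 cpm (-2.73 ± 0.35). Ncan and Acan, proteoglycans of the neural matrix that glia and neurons make, fell by 1.13 and 0.53 on the log2 scale. Sparc, a secreted matrix glycoprotein abundant in astrocytes, measured 2419, 2527, 2600 and 3253 cpm with MC903 and 2058, 1594, 1707, 1573 and 1496 cpm with ethanol, and rose by 0.68 ± 0.11 (adjusted p = 0.000953). The number of lower matrix genes was 5 without MC903 replicate 1 or ethanol replicate 3, and 1 was higher without MC903 replicate 2, ethanol replicate 2 or ethanol replicate 4.

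Endothelial markers were divided, with 6 of 12 lower and 1 higher (2 without ethanol replicate 1). Mfsd2a, the lipid transporter of the blood-brain barrier, measured 165, 157, 156 and 186 cpm with MC903 and 72.8, 50.2, 55.4, 51.4 and 51.1 cpm with ethanol. It rose by 1.56 ± 0.11 without overlap (adjusted p = 9.29e-07). In contrast, the junction protein Cdh5 (-0.93 ± 0.11), Itm2a (-1.0 ± 0.10) and the vascular receptors Tek (-1.18 ± 0.18), Flt1 (-0.67 ± 0.11) and Kdr (-1.04 ± 0.22) fell. The endothelial sum overlapped between groups, 779 to 906 cpm against 649 to 1045 cpm. Aplnr, the apelin receptor, measured 5.52, 6.60, 8.39 and 3.99 cpm with MC903 and 56, 47.2, 53.4, 46.2 and 49.5 cpm with ethanol. It was low in every treated cord (-3.04 ± 0.17, adjusted p = 1.13e-07). The mural gene Rgs5 was lower (-0.72 ± 0.19), but in 5 of the 9 fits without 1 library it was not (adjusted p up to 0.0851). It was the 1 of 10 mural genes that passed, and 3 passed as lower without ethanol replicate 1.

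The clearest decreases outside the lists joined glial, vascular and matrix roles. These genes too were named only where the groups did not overlap. Igfbp4, which binds insulin-like growth factors, measured 19.2, 19.6, 20.4 and 18.9 cpm with MC903 and 85.9, 76, 80.4, 86 and 85.9 cpm with ethanol. It had the smallest p of all genes (-2.09 ± 0.08, adjusted p = 7.60e-09). Il33, an alarmin cytokine held in the nuclei of glia, measured 37.1, 40.9, 60 and 41.6 cpm against 259, 201, 195, 200 and 192 cpm. All treated cords were over 3-fold below each control (-2.22 ± 0.14, adjusted p = 3.91e-07). Myoc, a secreted glycoprotein, fell from 37.8 ± 4.21 to 5.76 ± 0.78 cpm (-2.71 ± 0.12). Clec3b fell by 2.66, the ectonucleotidase Enpp1 by 1.80 and the basement membrane protein Nid1 by 1.85 on the log2 scale. The unconventional myosin Myo1d fell by 1.44, Gas7 by 1.24, the growth factor Tgfa by 1.10 and the gene model A930006I01Rik by 3.92 on the log2 scale.

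A few scarce genes were lower as well, and they are given as counts. The lipid carrier Pmp2 of Schwann cells and glia was counted 0, 1, 0 and 0 times with MC903 and 41, 11, 23, 29 and 30 times with ethanol. Gkn3 was counted 1, 2, 5 and 2 times against 58, 20, 13, 22 and 27, and Myocos, a transcript opposite Myoc, 2, 5, 2 and 0 times against 31, 15, 11, 20 and 29. Of 8 adipocyte genes measured (10 listed), Car3, Cfd and Ucp1 were lower. Car3, a carbonic anhydrase, fell from 8.64 ± 3.83 to 2.54 ± 0.72 cpm, and ethanol replicate 1 held the most at 15.3 cpm. Cfd and Ucp1 lost their calls without MC903 replicate 1 or MC903 replicate 2 (adjusted p up to 0.0665 and 0.0659), and Cfd also without MC903 replicate 4. In the fits without ethanol replicate 1 or MC903 replicate 4, 1 adipocyte gene passed as higher. Car3, Cfd and Ucp1 were highest in ethanol replicate 1, where the adipocyte sum was 40.3 cpm against 16.1 to 21.6 in the other controls and 14.1 to 20.7 in MC903 cords.

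Neuronal genes changed little. None of 14 pan-neuronal markers passed (edgeR), 2 had an unadjusted p under 0.05, and 3 passed as higher without ethanol replicate 1 and 1 by DESeq2. The synaptic vesicle protein Snap25 had the smallest p and measured 2243, 2459, 2379 and 2333 cpm with MC903 and 2174, 2085, 2206, 1935 and 1885 cpm with ethanol (0.19 ± 0.07, adjusted p = 0.096; 0.0241 without ethanol replicate 1). Elavl4 (-0.26) and Syn1 (-0.12) did not pass, though Elavl4 did as lower without MC903 replicate 3 (adjusted p = 0.0469). The motor neuron marker Chodl fell from 78.9 ± 8.79 to 41.2 ± 9.17 cpm (-0.94 ± 0.13, adjusted p = 0.00034), alone among 10 such genes, while 1 passed as higher without ethanol replicate 1.

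Of 38 genes of the spinal itch circuit, 1 was higher and 3 lower, against 5.05% and 7.14% of all genes. The lower count was 1 without MC903 replicate 2 or ethanol replicates 2, 4 or 5 in turn, and without ethanol replicate 1 there were 5 lower and 2 higher. Penk, the precursor of enkephalins, opioids of dorsal horn interneurons, measured 135, 137, 139 and 145 cpm with MC903 and 77.3, 108, 102, 107 and 110 cpm with ethanol. The increase was small but without overlap (0.47 ± 0.10, adjusted p = 0.0059). Il13ra1, a receptor chain for IL-13, fell by 0.84 on the log2 scale (adjusted p = 0.00245). The inhibitory neuropeptide somatostatin, Sst, measured 35.3, 35.5, 43.5 and 42.9 cpm against 49.1, 54.2, 46.4, 48.9 and 50 cpm (-0.34 ± 0.09, adjusted p = 0.0225). Npr1, the natriuretic peptide receptor, was lower by 0.49 ± 0.14 (adjusted p = 0.0349). The calls of Sst and Npr1 were lost in 5 and 7 of the 9 fits without 1 library, at adjusted p up to 0.098 and 0.0931. Gastrin-releasing peptide and its receptor, central to itch relay, did not pass: Grp had a log2 fold change of -0.35 and Grpr of 0.40. Neurokinin genes Tac1 (-0.43) and Tacr1 (-0.21), the kappa opioid system genes Pdyn (-0.03) and Oprk1 (0.30) and the cytokine receptor Il31ra (-1.84, adjusted p = 0.0752) did not pass either.

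Among 26 neurotrophic and synaptic activity genes 3 were higher, or 6 without ethanol replicate 1 and 5 without MC903 replicate 3. Scg2, a granin of secretory vesicles, measured 334, 325, 318 and 340 cpm with MC903 and 251, 246, 261, 253 and 257 cpm with ethanol (0.38 ± 0.06, adjusted p = 0.00106). Ntrk2, the BDNF receptor, rose by 0.44 ± 0.08 and the pentraxin Nptx2 by 0.71 ± 0.14. The Scg2 libraries of the 2 groups did not overlap.

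Clock genes shifted in a mixed manner. Of 19, 7 were higher and 1 lower. Per1, a clock repressor that glucocorticoids also induce, measured 62, 54.2, 46.5 and 142 cpm with MC903 and 26.4, 30.4, 27.6, 24.6 and 23.1 cpm with ethanol. MC903 replicate 4 was more than 2-fold above the other treated cords, which were all above the controls (1.53 ± 0.26, adjusted p = 0.00162). Per2 (0.49 ± 0.10), Cry1 (0.84 ± 0.17), Cry2 (0.76 ± 0.16) and Tef (0.55 ± 0.10) rose. Dbp, an output gene of the clock, measured 32.4, 35.8, 36.8 and 41.8 cpm with MC903 and 98.2, 76.2, 71.1, 67.1 and 77.7 cpm with ethanol, and fell (-1.09 ± 0.11, adjusted p = 3.14e-05). The hour of dissection is not given in the sources used here, so its part in these values was not tested.

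Of 15 heat shock genes, 6 were lower, 1 was higher and 8 did not pass. Cryab, the small chaperone αB-crystallin of oligodendrocytes and astrocytes, measured 84.8, 86.6, 110 and 91.8 cpm with MC903 and 234, 239, 273, 227 and 226 cpm with ethanol. It fell by 1.36 on the log2 scale (adjusted p = 7.96e-07). Chordc1 (-0.94 ± 0.12), Hspa5 (-0.42 ± 0.08), Hsph1 (-0.85 ± 0.17) and Hspa1b (-0.73 ± 0.16) fell, and Hspa1b shares reads with its near-identical copy Hspa1a. Hsph1 was 834 cpm in ethanol replicate 1 and 449 to 473 cpm in the other controls, against 258 to 348 cpm in MC903 cords.

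The list of vitamin D targets is short, and over all genes 5.05% were higher and 7.14% lower. It also holds the receptor Vdr and enzymes of the vitamin D pathway, and the targets Trpv5 and S100g were not tested. Whether MC903 acted on the cord directly was not tested. Of 14 measured (16 listed), 2 were lower, and 2 passed as higher without ethanol replicate 1, 1 without ethanol replicate 5 and 1 by DESeq2. Pth1r, the parathyroid hormone receptor, fell by 0.81 on the log2 scale (adjusted p = 0.00064), and osteocalcin, Bglap, was counted 0, 1, 0 and 2 times with MC903 and 7, 7, 6, 26 and 15 times with ethanol. Of 16 proliferation genes, Mcm2 alone passed (-0.53 ± 0.12); 6 were lower without ethanol replicate 1, 3 without MC903 replicate 3 and 2 without MC903 replicate 4.

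Markers of cells that enter or adhere to the cord make short lists, and over all genes 5.05% were higher and 7.14% lower. Of 8 blood genes none passed (edgeR, also by DESeq2), 6 had an unadjusted p under 0.05, and 7 passed as lower without MC903 replicate 3 and 1 without ethanol replicate 1. Summed, they ran from 257 to 1095 cpm in MC903 and from 748 to 1351 cpm in ethanol libraries, with MC903 replicate 3 the highest of the treated. Hba-a2 (-0.90) and Hbb-bt (-0.89) did not pass, and each has a near-identical copy with which it can share reads. Of 12 neutrophil genes, Mmp8 passed as higher (2.06 ± 0.57, adjusted p = 0.0306), at 5.02 cpm in MC903 replicate 3 and 0.60 to 1.21 cpm in the other treated cords, and the call was lost without that library and in 3 other fits without 1 library, those without ethanol replicates 2, 3 or 5 (adjusted p up to 0.159). The T cell receptor gene Trac was lower (-1.32 ± 0.31), though not without MC903 replicate 1 (adjusted p = 0.0504), and 2 of its list of 11 were lower without MC903 replicate 3. The chemokine Pf4, from a list of 10 macrophage genes, was counted 0, 7, 2 and 4 times against 42, 22, 14, 6 and 6, and its call was lost in 6 of the 9 fits without 1 library (adjusted p up to 0.0907), while 3 of the list were lower without ethanol replicate 1.

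Of 10 Schwann cell genes 2 were lower and 1 higher. Pmp22, a protein of peripheral myelin, fell by 0.60, the scarce Pmp2 was also lower, and Cdh19 rose by 0.64 on the log2 scale; Cdh19 lost the call without MC903 replicates 1, 2 or 3 in turn (adjusted p up to 0.0583). The list had 5 lower and 2 higher members without ethanol replicate 1, and 1 lower and 2 higher with the PBS mice added and injection as a term, where Pmp22 did not pass (-0.21, adjusted p = 0.499). Among the PBS mice alone its median was 1.17, with 8 of 9 tested genes positive. Of 10 ependymal genes, Rarres2 (-1.04 ± 0.16) and Rsph1 (-1.13 ± 0.25) fell. The itch receptor Mrgpra3, from 13 measured sensory neuron genes (14 listed), was counted 6, 11, 7 and 0 times with MC903 and not once with ethanol, a difference whose call was lost in 7 of the 9 fits without 1 library (adjusted p = 0.0377, up to 0.0982). Without ethanol replicate 1, 2 genes of that list passed as higher. No skeletal muscle gene passed among 10 and no skin gene among 9 measured (edgeR), with 0 and 3 at an unadjusted p under 0.05 and 0 and 2 past DESeq2's threshold; Acta1 (-0.67), Mylpf (-1.04) and Atp2a1 (0.70), and Trp63 (-0.50), Krt5 (-4.13) and Dsp (-1.52), had the smallest p-values of the 2 lists. Krt5 and Dsp passed without ethanol replicate 1 (adjusted p = 0.0133 and 0.0202). With the PBS mice added and injection as a term, Acta1 (-1.02, adjusted p = 0.0292), Mylpf (-1.38, 0.0477) and Krt5 (-4.08, 0.0385) passed as lower.

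Cords of injected mice gave a second look at the same contrast with other animals. In the PBS group 0 of 24573 genes passed (0%) with 2 libraries against 2, 1571 had an unadjusted p under 0.05, and 174 passed by DESeq2. In the anti-Gr1 group 3132 of 27649 genes passed, 11.3%, with 1256 higher (4.54%) and 1876 lower (6.79%). Of the 1291 genes higher in uninjected cords, 1262 were tested with PBS and 1085 had the same sign there, 86%, against 62.7% of all genes with a positive sign. The 1827 lower genes had the same sign in 88.9% of those tested, against 61.5%. In the anti-Gr1 cords 563 of the higher genes were also called higher, 43.8% of those tested and 44.8% of the anti-Gr1 list. Of the lower genes 1123 were also called lower, 61.5% and 59.9%, and 0 genes were called in opposite directions (edgeR).

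The glucocorticoid-responsive genes had a median log2 fold change of 1.33 with PBS and 0.57 with anti-Gr1, where 18 of the 30 were higher. The 12 microglial markers had medians of -0.53 and -0.65, and 11 were lower with anti-Gr1. Oligodendrocyte markers had medians of -0.42 and -0.49, with 8 lower in the anti-Gr1 cords. Meningeal markers did not follow the uninjected cords in the PBS group, where 9 of 12 had a positive sign and the median was 0.28, and 2 of 12 were lower with anti-Gr1 (median -0.73). Interferon-induced genes had medians of -0.22 and -0.38, with 10 lower in the anti-Gr1 cords.

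Lcn2 measured 11.1 and 8.51 cpm in the PBS-injected MC903 cords and 2.30 and 2.27 cpm in their controls. Its log2 fold change there was 2.1 (unadjusted p = 3.19e-05, adjusted p = 0.131 by edgeR). In anti-Gr1 cords Lcn2 ran from 6.79 to 51.6 cpm with MC903 (median 17.2, n = 8) and from 3.45 to 60.2 cpm with ethanol (median 11.7, n = 6). Those groups overlapped widely and the log2 fold change was 0.00 ± 0.50 (adjusted p = 0.999). The difference between uninjected and anti-Gr1 effects, 1.97 ± 0.74, did not pass (adjusted p = 0.239 by edgeR). Fos had log2 fold changes of 0.06 with PBS and 0.40 ± 0.18 with anti-Gr1 (adjusted p = 0.183), and Junb of 0.58 and 0.05 ± 0.11. Neither difference from the uninjected effect passed by edgeR with all of these libraries, for Fos 0.49 ± 0.27 (adjusted p = 0.459) and for Junb 0.80 ± 0.20 (adjusted p = 0.0651). The Junb difference did pass by DESeq2 (0.78, adjusted p = 0.0232). It also passed by edgeR without MC903 replicate 3 (0.92, adjusted p = 0.0149) or ethanol replicate 1 (0.85, adjusted p = 0.0462).

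For 153 of 28747 genes, 0.532%, the MC903 effect differed between uninjected and anti-Gr1 cords, of which 36 were more negative in uninjected cords (0.125% of all genes) and the rest more positive (0.407%). Of the 30 glucocorticoid-responsive genes, 11 had a more positive effect in uninjected cords. Plin4 changed by 3.97 without injection and by 1.72 ± 0.20 with anti-Gr1, a difference of 2.28 (adjusted p = 0.00127). Fkbp5 differed by 1.21 (adjusted p = 0.005), since its log2 fold change was 1.81 uninjected and 0.63 with anti-Gr1. Ddc, Pla2g3, Tma16, Zfand4 and Mfsd2a were likewise higher in both groups with a smaller change under anti-Gr1. Igfbp4 and Aplnr were lower in both, with differences of -0.75 and -1.60. With the PBS libraries added and injection as a term, the differences of Plin4, Fkbp5 and Pla2g3 still passed. Those of Ddc (adjusted p = 0.141), Tma16 (0.193), Zfand4 (0.0876), Mfsd2a (0.161), Igfbp4 (-0.43, 0.547) and Aplnr (-1.22, 0.154) did not. The count of 153 was 15 when the PBS libraries were added to the uninjected ones, 55 to 90 without MC903 replicates 1 or 4 or ethanol replicates 3 or 4 in turn, 416 without MC903 replicate 3 and 471 by DESeq2. Injected and uninjected cords differed in their share of reads outside genes, as given above, so injection and these library differences cannot be told apart.

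**Figure D5:**
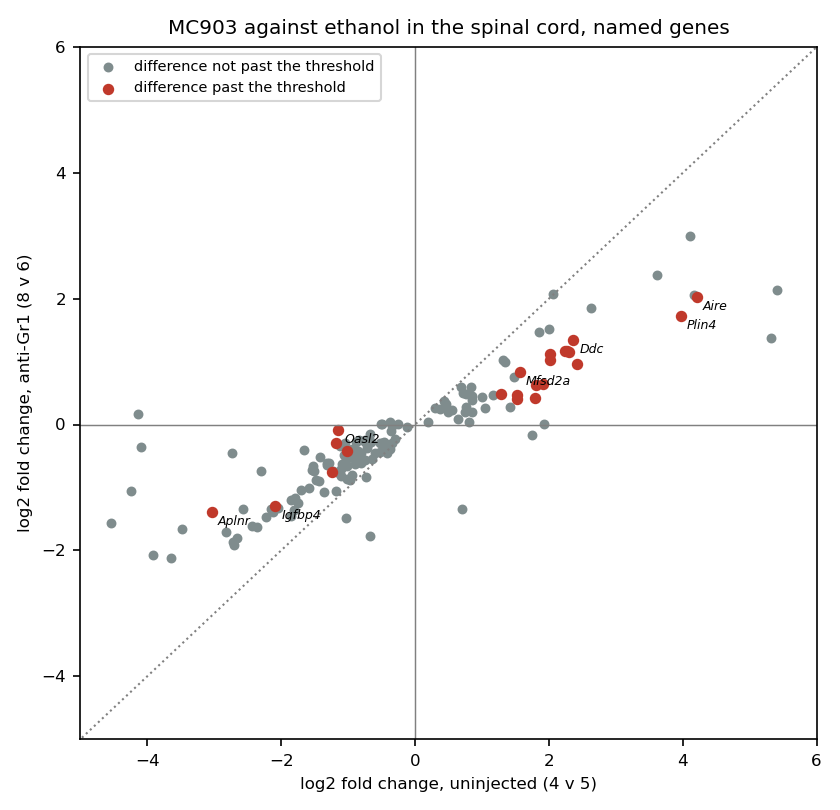
Log2 fold change of MC903 against ethanol for 156 named genes in uninjected (horizontal axis) and anti-Gr1-injected cords (vertical axis); the dotted line marks equal change and red points are the 22 genes whose difference passed. Plin4 lies at 3.97 and 1.72, below the line, and Aplnr at -3.04 and -1.40, above it.

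The trigeminal ganglion, which carries sensory neurons of the face, and skin of uninjected day 8 mice gave a further comparison, from mice treated on the cheek. In the ganglion 26 of 25600 genes passed, 0.102%, and in skin 6125 of 26175, 23.4%. The MC903 effect differed between cord and ganglion for 853 of 27739 genes, 3.08%, with 298 more positive (1.07%) and 555 more negative in cord (2%). Of the glucocorticoid-responsive genes, 13 of 30 had a more positive effect in cord, and the ganglion's median over the list was 0.32. Of the 12 microglial markers 4 had a more negative effect in cord, and of the oligodendrocyte markers 4. In skin the glucocorticoid list had a median of 0.21, the interferon list one of 1.75 with the opposite sign of the cord's -0.81, and Il33 a log2 fold change of 3.67 where the cord's was -2.22. These skin values stand beside the cord's without a test of the difference.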

How the data were processed

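Mouse spinal cord RNA was sequenced by the authors and deposited as raw counts per gene. The submitters' processing notes name TopHat2, TopHat, Bowtie2, HTSeq and mm10; the annotation release and strand setting are not given in the sources used here. Ensembl identifiers were given GENCODE vM21 symbols (45143 of 46078 matched). Tally lines such as reads outside genes were kept out of library sizes and tests. The 9 libraries held 25941277 to 50591655 counts.

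Genes with at least 10 counts in total were tested with edgeR 4.0.16 (R 4.3.3; TMM, quasi-likelihood test, Benjamini-Hochberg, adjusted p under 0.05) and, as an alternative, DESeq2 1.42.0. Levels are cpm of TMM-scaled libraries, and SE was taken from the log2 fold change and its F statistic. Uninjected, PBS and anti-Gr1 cords were fitted apart, and differences between them by an interaction contrast. Ganglion and skin fits carried a term for title style. The code recovered known changes in simulated counts, where all genes had the same dispersion, only well-counted genes changed and no library stood apart. Small changes and scarce genes were not tested this way. Within-group correlations used log2 cpm.

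Named were Lcn2, Fos and Junb, up to 12 genes per direction by p and 4 by fold change without overlap between groups, and up to 6 members per list by p (3 where none passed). Other list members and genes with promoter matches were chosen after their values were seen. Some genes are not reported here. Lists and comparisons were chosen with earlier results of these data known. Promoter letters come from RefSeq (GRCm38.p6).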

Additional observations from a re-analysis of the deposited data

Results flagged for a closer look

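In 44 of 310 value sets (155 named genes, each in 2 groups), or 14.2%, the highest or lowest library lay apart by Dixon's criterion. Its chance rate of about 1 in 20 holds for independent, normally distributed values. These sets are cpm values that share the same libraries, so their share cannot be set against that rate. The ratio in parentheses is the gap to the nearest library over the whole range of the group. Ethanol replicate 1 was the library apart in 20 sets and the highest in 16 of them: Enpp1 (0.8285), Il33 (0.876), Ucp1 (0.766), Gkn3 (0.734), Lrg1 (0.784), Plin4 (0.777), Cry1 (0.901), Cry2 (0.780), Hsph1 (0.937), Penk (0.739), C3 (0.732), Ncan (0.837), Trem2 (0.814), Ntrk2 (0.722), Opalin (0.790), Elavl4 (0.735), Mfsd2a (0.770), Trac (0.748), Car3 (0.787) and Cfd (0.821). MC903 replicate 3 was apart for Il6st (0.867), H2-Aa (0.864), Col1a1 (0.964), Trem2 (0.925), Tyrobp (0.892), Itgam (0.987), Mog (0.898), Chodl (0.911) and Mmp8 (0.864). MC903 replicate 4 was apart for Rbm3 (0.841), Csrnp1 (0.904), Sik1 (0.899), Per1 (0.838), Ntrk2 (0.867) and Trp63 (0.922). MC903 replicate 1 was apart for Tgfa (0.841) and C3 (0.888), and MC903 replicate 2 for Pmp2 (1) and Cd44 (0.901). The Pmp2 flag rests on 1 read, or 0.0192 cpm. The remaining ethanol libraries were apart for Mylpf (0.789) in replicate 2, for Sik1 (0.713) and Cryab (0.720) in replicate 3 and for Bglap (0.747) and Dsp (0.719) in replicate 4. What set these libraries apart was not tested.

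The MC903 effect differed between uninjected and anti-Gr1 cords for 153 genes by the test of the difference itself (edgeR), 22 of them among the named genes. The difference of log2 fold changes, uninjected minus anti-Gr1, was above 0 for Ddc (1.06), Fkbp5 (1.21), Hif3a (1.03), Ddit4 (0.93), Pla2g3 (1.12), Tma16 (1.30), Arrdc2 (1.11), Zfand4 (1.51), Sgk3 (1.18), Aire (2.22), Csrnp1 (1.09), Cebpd (1.41), Il6ra (0.83), Plin4 (2.28), Per1 (1.16) and Mfsd2a (0.77). It was below 0 for Igfbp4 (-0.75), Aplnr (-1.60), Gas7 (-0.45), Oasl2 (-1.01), Mog (-0.57) and Tek (-0.85). Of these 22 differences, 5 still passed when the PBS libraries were added with injection as a term (Fkbp5, Hif3a, Pla2g3, Cebpd and Plin4), and the other 17 did not (adjusted p = 0.0876 to 0.547 by edgeR). In the 9 fits without 1 uninjected library, the call was lost at least once for Ddit4, Arrdc2, Sgk3, Aire, Csrnp1, Cebpd, Il6ra, Per1, Gas7, Oasl2, Mog and Tek, and most often, in 6 fits each, for Sgk3, Aire, Cebpd, Oasl2 and Tek. Il6ra also lost it with DESeq2's size factors (adjusted p = 0.0608) and with edgeR's own filter (0.0541). Between cord and trigeminal ganglion the effect differed for 853 genes, and the cheek and back treatments of these mice cannot be told apart from the tissue.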

How the results depend on the processing

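The uninjected cord gave 3118 calls, 1291 higher and 1827 lower, and the count stayed within 1.5 times of this with DESeq2's size factors, edgeR's own filter, no filter, DESeq2 and the PBS libraries with injection as a term. One fit over all 27 cord libraries gave 5667 (2710 higher, 2957 lower). Leaving out 1 library gave 1887 to 4960 calls (735 to 2147 higher, 1152 to 2813 lower), lowest without MC903 replicate 1 and highest without ethanol replicate 1. Of 157 named genes, 130 kept their side of the threshold in all 9 such fits and 27 did not. With the PBS libraries and injection as a term, Esm1, Sst, Npr1, C1qa, Ctsz, Cspg4, Igf2, Slc13a4, Slc6a13, Rsph1, Pmp22 and Pf4 lost their calls (adjusted p = 0.0554 to 0.499), and Acta1, Mylpf and Krt5 gained one. Atp2a1, not called, turned to -0.19 with the PBS libraries added and ran from -0.16 (without MC903 replicate 4) to 1.25 when 1 library was left out.

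Adding the replicate number as a block, the uninjected cord gave 1747 calls (663 higher, 1084 lower), the PBS cord 224 (102 of them lower) and the anti-Gr1 cord 1993 (703 higher). Named genes that lost their calls in the uninjected cord with this block (edgeR) included Iigp1 (adjusted p = 0.0501), Kdr (0.0636), Mcm2 (0.0776) and Aldoc (0.1). Several lists had fewer calls there too, among them the astrocyte markers with 3 higher. Deviations of same-numbered libraries correlated between -0.181 and 0.0174 in the uninjected cord and between -0.145 and 0.266 in the anti-Gr1 cord. Whether such libraries share more than a number cannot be told from so few pairs. With PBS the correlation was -0.428. With 2 libraries per group, crossed pairs must have the opposite value, 0.428. Crossed pairing, added after seeing the data, gave 955 calls (408 and 547), and these say nothing on which libraries belong together. DESeq2, also added for PBS, gave 174 (98 and 76).

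The difference between uninjected and anti-Gr1 cords, 153 genes, was 471 by DESeq2 (266 and 205) and 15 (15 and 0) with the PBS libraries added, and its lower count was 58 with edgeR's own filter. Leaving out 1 uninjected library gave 55 to 416 (47 to 284 more positive). The difference from ganglion, 853, was 429 (298 of them more negative) without a term for title style and 540 to 1041 without 1 cord library (190 to 396 and 345 to 645). The cause of these shifts was not tested. Genes of few counts are limited by depth.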
